A study of Homo sapiens with 4 samples.

Results

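The genes that write and erase lysine methylation on histone H3 were followed in the H3K27ac enhancer regions of Kasumi-1 cells with and without a guide against SETD8. The 44 genes were chosen by symbol, 28 methyltransferases (writers) and 16 demethylases (erasers), with the enzymes of H4K20 left out, from 20056 protein-coding genes. A region belonged to a gene when the deposited annotation named it for that gene. Kasumi-1 is an acute myeloid leukaemia line whose t(8;21) translocation joins the genes RUNX1 and RUNX1T1. The cells carried CRISPR/Cas9 with a guide against SETD8 (sgSETD8, genotype SETD8 knockout, 2 samples) or a non-targeting guide (sgNT, genotype WT, 2 samples), and the labels do not say whether the knockout cells were a clone or a pool. The assay was CUT&Tag, where antibody-guided transposase cuts at the marked chromatin, for acetylation of lysine 27 on histone H3 (H3K27ac), found at enhancers and promoters in use.

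Histone lysine methylation is placed by SET domain enzymes and by DOT1L, which has no SET domain. It is removed by flavin-dependent amine oxidases (KDM1A and KDM1B) and by Jumonji enzymes that need iron, oxygen and 2-oxoglutarate. Methylation of H3K4, H3K36 and H3K79 marks active or transcribed chromatin, while methylation of H3K9 and H3K27 marks repressed chromatin, and H3K27 cannot be methylated and acetylated at the same time. In myeloid leukaemia KMT2A is a frequent fusion partner, EZH2 and KDM6A are targets of loss-of-function mutation, and JMJD1C is known as a cofactor of the RUNX1-RUNX1T1 fusion.

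Each group had 1 table in each of 2 pairs, set by the naming inside the region identifiers, with coordinates on hg38. The sparse table read as sgNT carries no guide name in its identifiers, and its group was taken from that absence. The dense pair held 18061 sgSETD8 and 15149 sgNT regions, and the sparse pair 7276 sgSETD8 and 5186 sgNT regions. With 2 tables against 2 the smallest exact two-sided permutation p is 0.333, so no p-values are given, and read depth is unknown. All intervals are exact Clopper-Pearson 95% intervals, which cover the counting of regions only. Peaks lying near each other were joined into 1 region, but 14.3% of dense sgSETD8 and 13.5% of dense sgNT regions were unjoined peaks close to a neighbour, against none in the sparse pair. Such peaks made up 51 of 136 dense sgSETD8 and 42 of 104 dense sgNT regions of the 44 genes. They were named for JMJD1C, KMT2E and SETD1B, so covered length is given beside region number. KMT5A, the gene of SETD8, had 1 region in dense sgSETD8 (rank 3326 by signal) and 1 in dense sgNT (rank 3224) and none in the sparse pair, and H3K27ac does not show loss of the protein. The myeloid and progenitor genes CD34, KIT, SPI1, RUNX1 and MPO had regions in both dense tables, HBB and ALB in no table, CD3E had 1 in each dense table, and EPCAM had 1 weak region in dense sgSETD8 only (rank 15818).

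Most of the 44 genes had acetylated regions in both dense tables, and the extent of their regions differed between the groups in both directions. In the dense pair 30 genes had a region in sgSETD8 and 32 in sgNT, set beside 36.2% and 33.0% of all protein-coding genes. Sparse regions were found for 13 genes in sgSETD8 and 15 in sgNT, beside 18.0% and 14.9% of all genes. The 44 genes are long, with a median of 84.1 kb against 24.1 kb for all protein-coding genes, and the part of length in these shares was not tested. KMT2B, SETD1A, SUV39H1, SETDB1, NSD1, ASH1L, EHMT2, PRDM16, KDM1A, KDM5A, KDM6B and KDM7A, 12 genes in all, had no region under their own name in any table. Some of these lay under regions named for a neighbour, most of all ASH1L, so bases covered inside each gene were also counted by position. By position 33 of the 44 genes were covered in dense sgSETD8 and 33 in dense sgNT (35.8% and 32.7% of all genes). KMT2B, SETD1A, SUV39H1, KDM5A, KDM6B and KDM7A were not covered by position in any table.

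The genes had 136 regions in dense sgSETD8 and 104 in dense sgNT, a log2 ratio of 0.39 (interval 0.01 to 0.77), where all regions gave 0.25. The sparse pair had 24 regions in sgSETD8 and 23 in sgNT, a log2 ratio of 0.06 (interval -0.83 to 0.95), where all regions gave 0.49. The mean over the pairs was 0.22 ± 0.23 (SD, n = 2 pairs), no larger than the spread between them. Covered length told less of a difference in the dense pair, 1186 kb in sgSETD8 and 1145 kb in sgNT (log2 ratio 0.05, all regions 0.20). It ran the other way in the sparse pair, 15.3 kb in sgSETD8 and 33.2 kb in sgNT (log2 ratio -1.12, all regions -0.17). Of the 32 genes with a dense region, 17 had more regions in sgSETD8 and 7 fewer, beside 36.1% and 21.0% of all genes with a dense region. No gene of the 32 had a dense region in sgSETD8 only (interval up to 10.9%, against 19.1% of all genes with a dense region), and 2 had one in sgNT only, EZH1 and SETDB2 (11.2% of all). Of the 19 genes with a sparse region, 4 had a region in sgSETD8 only (EHMT1, SUV39H2, KDM3B and KDM5B, against 42.9% of all genes with a sparse region) and 6 in sgNT only (KMT2C, KMT2D, SETD3, NSD2, KDM2B and KDM3A, against 31.0%). None of the genes with a region in a single sparse table showed the same in the dense pair.

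**Figure D1:**
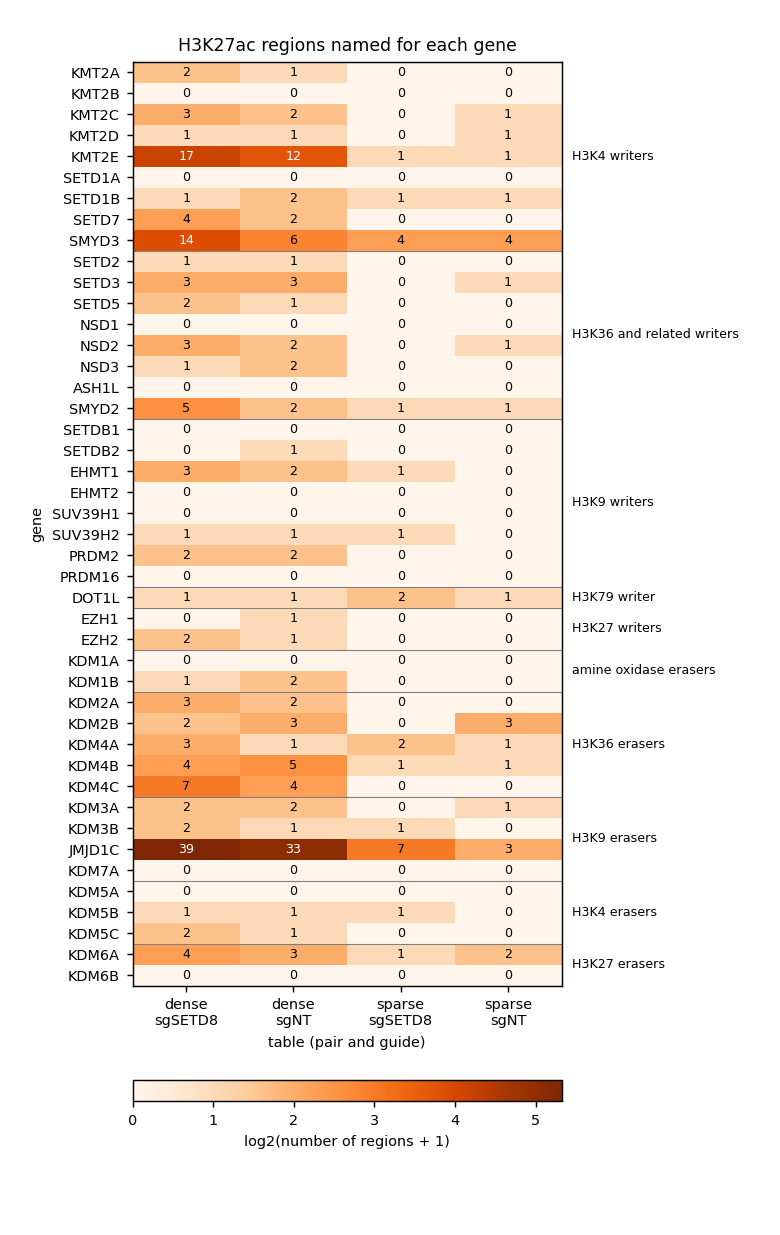
Number of H3K27ac regions named for each of the 44 genes (rows, grouped by role) in the 4 tables (columns), with colour giving log2 of the number plus 1. JMJD1C, with 39 regions in dense sgSETD8 and 33 in dense sgNT, KMT2E and SMYD3 have the largest numbers, and the sparse tables hold few.

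Many of the regions sat in first introns. First introns held 63 of the 136 dense sgSETD8 regions (46.3%) and 53 of the 104 dense sgNT regions (51.0%), against 25.6% and 27.6% of all regions of those tables. Of these, 33 in sgSETD8 and 28 in sgNT were unjoined peaks named for JMJD1C and KMT2E. Many of those named for JMJD1C lay in the first intron of another transcript (NM_001001330) upstream of it, and not in JMJD1C. Among joined regions 30 of 85 in sgSETD8 (35.3%, interval 25.2 to 46.4) and 25 of 62 in sgNT (40.3%, interval 28.1 to 53.6) lay in a first intron, against 24.3% and 26.4% of all joined regions. Promoters were then looked at in the RefSeq table for GRCh38.p14, which held windows of 250 bases before to 50 bases after the start for 40 of the 44 genes. A dense region covered a promoter window in both groups for 9 genes (JMJD1C, KDM2B, KDM5B, KMT2A, KMT2D, KMT2E, NSD2, SETD2 and SMYD3), beside 7.12% of all genes with a window. A gene was counted when any of its windows was covered. The KDM2B windows nearest that gene's start were covered in sgSETD8 only, and the SMYD3 window at its gene's start in neither group. The cover of KDM5B in sgSETD8 was 9 of 300 bases. ASH1L, SETD5, SETD7, SUV39H2 and KDM6A were covered in sgSETD8 only, 5 genes beside 3.83% of all. KDM2A, KDM3B, KDM5C and SETDB2 were covered in sgNT only, 4 genes beside 2.25%. No window was covered in the sparse pair. The regions are joined peaks, so a covered window may lie between peaks of a region.

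The 250 bases before the start are shown for JMJD1C, whose promoter was covered in both dense tables, for SETD5, SUV39H2 and KDM6A, covered in sgSETD8 only, and for KDM3B, KDM5C and SETDB2, covered in sgNT only. All are from RefSeq (GRCh38.p14), 5′ to 3′ on the gene's own strand. They lie at chr10:63521891-63522140 (JMJD1C, minus strand), chr3:9397365-9397614 (SETD5, plus), chr10:14878616-14878865 (SUV39H2, plus), chrX:44872938-44873187 (KDM6A, plus), chr5:138352435-138352684 (KDM3B, plus), chrX:53225208-53225457 (KDM5C, minus) and chr13:49444024-49444273 (SETDB2, plus). Capitals mark the RUNX core letters TGTGGT or TGCGGT and the ETS letters CCGGAAG, searched on both strands.
JMJD1C: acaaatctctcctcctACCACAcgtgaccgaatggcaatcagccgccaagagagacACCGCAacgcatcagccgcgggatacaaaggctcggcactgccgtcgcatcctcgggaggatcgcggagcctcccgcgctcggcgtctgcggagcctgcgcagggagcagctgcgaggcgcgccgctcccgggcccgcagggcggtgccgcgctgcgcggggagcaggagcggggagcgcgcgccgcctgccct
SETD5: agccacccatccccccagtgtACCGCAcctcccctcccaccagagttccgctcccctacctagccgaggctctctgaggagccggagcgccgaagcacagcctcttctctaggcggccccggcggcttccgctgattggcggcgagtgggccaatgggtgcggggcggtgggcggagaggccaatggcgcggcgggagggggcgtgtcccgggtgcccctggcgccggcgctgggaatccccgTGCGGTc
SUV39H2: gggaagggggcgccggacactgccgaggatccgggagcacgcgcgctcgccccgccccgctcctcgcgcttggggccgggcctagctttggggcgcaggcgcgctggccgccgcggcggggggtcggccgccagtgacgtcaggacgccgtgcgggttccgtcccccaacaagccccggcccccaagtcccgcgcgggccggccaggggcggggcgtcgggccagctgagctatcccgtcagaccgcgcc
KDM6A: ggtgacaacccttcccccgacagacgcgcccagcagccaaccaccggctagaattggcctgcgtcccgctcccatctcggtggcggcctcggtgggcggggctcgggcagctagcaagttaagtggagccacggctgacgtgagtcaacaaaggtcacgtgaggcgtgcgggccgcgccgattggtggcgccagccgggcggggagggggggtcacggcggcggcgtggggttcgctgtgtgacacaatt
KDM3B: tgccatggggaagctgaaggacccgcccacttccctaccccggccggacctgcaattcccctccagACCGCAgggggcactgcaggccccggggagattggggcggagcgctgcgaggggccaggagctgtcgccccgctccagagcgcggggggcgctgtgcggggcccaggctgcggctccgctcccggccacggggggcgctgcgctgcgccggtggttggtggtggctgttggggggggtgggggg
KDM5C: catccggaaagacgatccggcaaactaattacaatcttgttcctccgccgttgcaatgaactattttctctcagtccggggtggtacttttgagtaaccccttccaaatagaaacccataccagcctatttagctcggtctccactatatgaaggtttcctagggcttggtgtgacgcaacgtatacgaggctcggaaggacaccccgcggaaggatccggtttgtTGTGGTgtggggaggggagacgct
SETDB2: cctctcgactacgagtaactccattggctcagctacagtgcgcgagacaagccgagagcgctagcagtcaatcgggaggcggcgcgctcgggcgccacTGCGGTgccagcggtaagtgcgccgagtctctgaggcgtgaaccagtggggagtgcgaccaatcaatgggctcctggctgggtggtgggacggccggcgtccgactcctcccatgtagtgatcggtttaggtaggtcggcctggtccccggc

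JMJD1C and SETD5 each held 2 RUNX cores, KDM3B, KDM5C and SETDB2 1 each, and SUV39H2 and KDM6A none. Over all 58 windows of the 40 genes, 14 held a RUNX core (24.1%), against 16.3% of 35116 promoters. The ETS letters were in 8.62% of the windows and 8.52% of all promoters. The GC box GGGCGG was in 75.9% of the windows and 42.6% of all promoters, and the E-box CACGTG in 15.5% and 6.34%. A match of letters is a description and not a binding site. Where a window was covered in only 1 group, the nearest region of the other group was 1146 bp away for SUV39H2, 4193 bp for SETD5, 2848 bp for KDM6A, 2371 bp for KDM3B, 2629 bp for KDM5C and 2972 bp for SETDB2.

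Of the 9 writers of H3K4 methylation, 7 were covered in the dense pair, 6 over a greater length in sgSETD8 and KMT2A over a shorter one, where 60.1% of all covered genes were longer in sgSETD8 and 37.9% shorter. Counting only regions named for the genes, 4 were longer in sgSETD8 and 3 shorter. In the sparse pair 1 was longer in sgSETD8 and 5 were shorter by position, so the 6 to 1 count was not seen there. Of all genes covered in the sparse pair, 49.7% were longer in sgSETD8 and 50.2% shorter. The length in all was 4.73 kb in sparse sgSETD8 and 26.1 kb in sparse sgNT, and SETD1B and SMYD3 held most of the latter. KMT2C, a methyltransferase of enhancers, had 60.2 kb of its gene covered in dense sgSETD8 and 21.4 kb in dense sgNT, with 14 and 7 constituent peaks. A sgSETD8 region of 5 peaks in its intron 2 (chr7:152334422-152364080, 29.7 kb, rank 3038) lay 27796 bp from the nearest sgNT region. The sparse pair did not show this: sparse sgSETD8 had no KMT2C region and sparse sgNT had 1 of 0.299 kb, inside the same interval.

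KMT2A, the gene cut in KMT2A-rearranged leukaemias, was led by a region over its first intron and start. That region was 13.4 kb with 6 peaks in dense sgSETD8 (chr11:118434354-118447800, rank 2015) and 27.6 kb with 8 peaks in dense sgNT (chr11:118434384-118461941, rank 949). The regions start close together and the sgNT region runs further into the gene, where sgSETD8 has a separate peak of 0.778 kb. Over the whole gene the covered length was close, 23.2 kb in sgSETD8 and 26.1 kb in sgNT, with a region named for TTC36 covering a further stretch in both.

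KMT2D, the paralogue of KMT2C, had 1 region over its start in each dense table, 5.61 kb in sgSETD8 (rank 1545) and 5.88 kb in sgNT (rank 1266). By position 6.83 kb of KMT2D was covered in sgSETD8, where a region named for PRKAG1 adds to it, and 5.13 kb in sgNT. KMT2E, a SET domain protein that binds trimethylated H3K4, had 17 regions in sgSETD8 and 12 in sgNT, of which 16 and 11 were unjoined peaks. By position, with a region named for KMT2E-AS1 included in each table, 18.0 kb of the gene was covered in sgSETD8 and 12.6 kb in sgNT. SETD7 had 4 regions in sgSETD8 and 2 in sgNT, and by position 16.9 kb of the gene was covered in sgSETD8 and 10.0 kb in sgNT, there with a region named for RAB33B. SETD1B, a COMPASS methyltransferase, was covered over 7.43 kb in dense sgSETD8 and 6.51 kb in dense sgNT, while in the sparse pair it had 0.382 kb in sgSETD8 (rank 694) and 12.6 kb in sgNT (rank 14).

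SMYD3, a methyltransferase with histone and cytoplasmic substrates, carried the longest regions of all 44 genes in both dense tables. Its best-ranked region in dense sgSETD8 (chr1:246057847-246223428) was 166 kb with 38 peaks and rank 38, and that in dense sgNT (chr1:245937909-246215987) was 278 kb with 65 peaks and rank 21. The sgNT region matches a pair of sgSETD8 regions of 104 and 166 kb with a gap between them. SMYD3 had 14 dense regions in sgSETD8 and 6 in sgNT, but its covered length was 323 kb in sgSETD8 and 313 kb in sgNT, and the sparse pair had 4 regions in each group. Thus the larger number of regions went with nearly the same length.

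**Figure D2:**
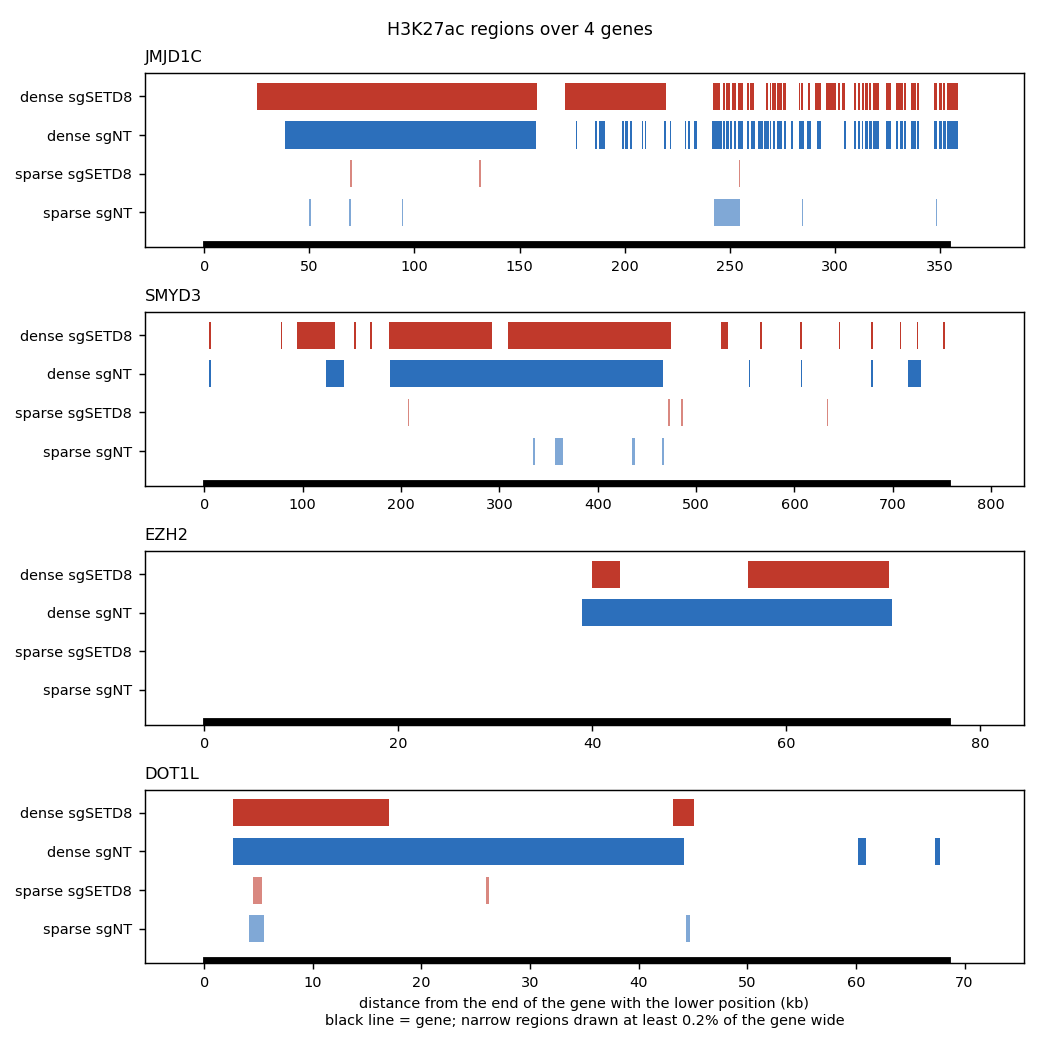
H3K27ac regions (bars) over JMJD1C, SMYD3, EZH2 and DOT1L in the 4 tables, as distance in kb from the end of the gene with the lower position, sgSETD8 in red and sgNT in blue, the gene as a black line. The sgNT regions of EZH2 and DOT1L run through stretches that are bare in dense sgSETD8, SMYD3 is split in dense sgSETD8, and the block of JMJD1C near 200 kb is joined in dense sgSETD8 only.

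All 8 writers of H3K36 methylation and related enzymes were covered in the dense pair, 4 over a greater length in sgSETD8 and 4 over a shorter one. NSD2, which dimethylates H3K36, had 30.5 kb covered in sgSETD8 and 40.8 kb in sgNT, with best ranks of 741 and 416. Its leading regions, chr4:1851736-1889992 in sgSETD8 and chr4:1851529-1906384 in sgNT, start together and span the gene's start, and the sgNT region is the longer. The sparse pair had no NSD2 region in sgSETD8 and 1 of 0.351 kb in sgNT.

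SETD2, the trimethylase of H3K36, differed little, with 40.8 kb covered in sgSETD8 and 41.1 kb in sgNT and ranks of 792 and 702. NSD1 was covered over 4.30 kb in sgSETD8 and 4.36 kb in sgNT, under a region named for RAB24. SETD5, a SET domain protein without firmly established enzyme activity, differed in the width of its leading region. That region was 27.1 kb in sgSETD8 (chr3:9392365-9419421, rank 915) and 14.3 kb in sgNT (chr3:9401858-9416160, rank 3012), with 6 peaks in each, and only the sgSETD8 region reaches the promoter.

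ASH1L, a Trithorax methyltransferase of H3K36, was covered over 53.7 kb in dense sgSETD8 and 26.3 kb in dense sgNT, by regions named ASH1L-AS1 and POU5F1P4. Sparse tables gave ASH1L no covered base in sgSETD8 and 1.03 kb in sgNT. NSD3 was covered over 42.2 kb in sgSETD8 and 22.8 kb in sgNT, with 11 peaks in each, while SETD3, whose main substrate is actin, had 39.2 kb and 31.3 kb. SMYD2 had 5 short dense regions in sgSETD8 and 2 in sgNT by name. Only 2 in sgSETD8 and 1 in sgNT lay in the gene, covering 3.20 kb and 3.57 kb of it.

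DOT1L, the only H3K79 methyltransferase, had shorter acetylated stretches in sgSETD8 in both pairs. In the dense pair its region was 14.3 kb with 6 peaks in sgSETD8 (chr19:2166626-2180933, rank 1561) and 41.5 kb with 10 peaks in sgNT (chr19:2166626-2208134, rank 601). The regions share their first base in intron 1, and the sgNT region runs on into intron 4. By position 16.2 kb of DOT1L was covered in sgSETD8 and 42.7 kb in sgNT. In the sparse pair an intron 1 region lay at chr19:2168445-2169237 in sgSETD8 (density 5.66 per bp, rank 261) and at chr19:2168054-2169480 in sgNT (density 12.02, rank 104), where density is the authors' signal per base on an unstated scale. Relative to the median of matched sparse regions the log2 density difference was -0.43, within the SD of 0.81 over those regions. A further sparse sgSETD8 region (chr19:2189853-2190166, intron 4, rank 1451) lay in the stretch covered by the dense sgNT region and bare in dense sgSETD8, and sparse sgNT had none there. The dense densities ran the other way, 0.917 per bp over the sgSETD8 region and 0.769 over the longer sgNT region.

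The H3K27 writers had shorter stretches in dense sgSETD8 too. EZH2, the catalytic subunit of Polycomb complex PRC2, had regions of 14.5 kb (chr7:148863428-148877974, rank 2869) and 2.83 kb in sgSETD8, with 7 peaks in all. In sgNT it had 1 region of 32.0 kb with 12 peaks (chr7:148846312-148878302, rank 857). All were annotated to intron 1 by their centre, and both sgSETD8 regions lay wholly inside the sgNT region, of which they covered 54.3%. EZH1, its paralogue, had no region in sgSETD8 and a single peak of 0.373 kb in sgNT (rank 14934). The sparse tables held no region for either gene, so the EZH2 difference rests on 1 table in each group.

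Of the 8 writers of H3K9 methylation, 5 were covered in the dense pair, 4 of them over a shorter length in sgSETD8, beside 37.9% of all covered genes. The sparse pair ran the other way, with 4 of these writers longer in sgSETD8 and none shorter, beside 49.7% and 50.2% of all covered genes. The length in all was 1.68 kb in sparse sgSETD8 and 0.293 kb in sparse sgNT. EHMT1, which dimethylates H3K9, was covered over 32.2 kb in sgSETD8 and 55.9 kb in sgNT, and PRDM2 over 16.3 kb and 17.8 kb. Sparse cover of EHMT1 was 0.354 kb in sgSETD8 and none in sgNT. SUV39H2, a trimethylase of pericentric heterochromatin, was the exception, with 9.74 kb of the gene covered in sgSETD8 and none in sgNT. Its region in dense sgSETD8 (chr10:14874549-14888602, 14.1 kb, 4 peaks, rank 2432) includes the gene's start, while the sgNT region (chr10:14876037-14877469, 1.43 kb, rank 8240) ends before it. A sparse sgSETD8 region of 0.274 kb lay inside the same stretch, and sparse sgNT had none.

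SETDB2 had no region under its name in dense sgSETD8 and 1 of 4.33 kb in dense sgNT (chr13:49443510-49447839, rank 3477). By position a sgSETD8 region named SETDB2-PHF11 covered 1.19 kb of the gene, against 3.57 kb in sgNT. EHMT2 had 0.497 kb covered in sparse sgSETD8 and 0.293 kb in sparse sgNT, PRDM16 0.552 kb in sparse sgSETD8 only, and SETDB1 0.332 kb in dense sgNT only. The narrowest regions of the tables were 0.274 kb in sparse sgSETD8, 0.293 kb in sparse sgNT and 0.320 kb in dense sgNT.

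Of the amine oxidases, KDM1A, the eraser of H3K4 methylation bound by the CoREST complex, had 0.375 kb covered in dense sgSETD8 and none in dense sgNT. KDM1B had 16.7 kb in sgSETD8 and 19.8 kb in sgNT. The erasers of H3K36 methylation were covered in all 5 cases, 2 over a greater and 3 over a shorter length in sgSETD8. KDM2A, which removes H3K36 dimethylation at CpG islands, had 29.1 kb covered in sgSETD8 and 59.2 kb in sgNT, and best ranks of 5645 and 824. Its leading sgNT region of 59.0 kb (chr11:67115292-67174249) covers the promoter, and sgSETD8 had pieces of 8.07 and 10.7 kb there.

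KDM2B, a subunit of a variant Polycomb complex, had 57.8 kb covered in dense sgSETD8 and 64.8 kb in dense sgNT, and in the sparse pair none in sgSETD8 and 1.73 kb in sgNT. KDM4C, an eraser of H3K9 and H3K36 trimethylation, had 7 regions in sgSETD8 and 4 in sgNT, covering 24.5 kb and 7.43 kb, with no region in the sparse pair. KDM4B had 4 regions in sgSETD8 and 5 in sgNT, covering 32.2 kb and 38.2 kb. KDM4A had 3 short dense regions in sgSETD8 and 1 in sgNT, and by position 0.990 and 0.537 kb of its gene were covered, in part or whole by regions named for KDM4A-AS1.

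JMJD1C, a Jumonji protein related to the H3K9 demethylases, had the most regions of the 44 genes, and 66.8% of its body was covered in dense sgSETD8 and 51.9% in dense sgNT. Its best-ranked region lay towards the gene's 3′ end and was 133 kb with 34 peaks in sgSETD8 (chr10:63192302-63325485, rank 47) and 120 kb with 33 peaks in sgNT (chr10:63205506-63325022, rank 79). A second strong region of a single peak covered the promoter shown above, 5.50 kb in sgSETD8 (density 3.88 per bp, rank 842) and 5.25 kb in sgNT (density 4.60, rank 891). Both places were thus acetylated in both groups at similar width.

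By name JMJD1C had 39 dense regions in sgSETD8 and 33 in sgNT, but by position 36 and 50. Of those in its body, 25 in sgSETD8 and 40 in sgNT did not carry its name. Names there were JMJD1C-AS1, LOC105378330, MIR1296 and REEP3. Most regions named for JMJD1C lay outside its body, many in introns of the upstream transcript NM_001001330. The covered length by position was 237 kb in sgSETD8 and 184 kb in sgNT, with 78 and 82 peaks, so that longer cover in sgSETD8 did not go with more peaks. Its promoter window at chr10:63465928-63466227, used by a shorter transcript, was covered in sgSETD8 and lay 5437 bp from the nearest sgNT region. The order turned in the sparse pair, with 1.37 kb in sgSETD8 and 15.2 kb in sgNT by position, most of the sgNT length in 1 region at 242 to 255 kb from the lower end of the gene. By name it did not turn, with 7 sparse regions over 2.70 kb in sgSETD8 and 3 over 1.67 kb in sgNT.

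KDM3B, an H3K9 demethylase, had 7.70 kb covered in dense sgSETD8 and 20.4 kb in dense sgNT. The sgNT region (chr5:138349181-138373078, 23.9 kb, rank 1537) runs through the promoter, and in sgSETD8 a region of 7.70 kb in intron 1 (chr5:138365730-138373431, rank 2447) and a peak of 0.526 kb upstream stood in its place. KDM3A had 2 dense regions in each group outside its body, 11.3 kb in sgSETD8 and 3.88 kb in sgNT. Among sparse regions KDM3B had 1 region of 0.274 kb in sgSETD8 only, and KDM3A 1 of 0.293 kb in sgNT only.

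Among the H3K4 erasers, KDM5B had 27.3 kb covered in dense sgSETD8 and 25.3 kb in dense sgNT, at ranks 1033 and 990, over its first intron. A sparse sgSETD8 region of 0.274 kb lay inside it, and sparse sgNT had none. KDM5C had 2.09 kb in sgSETD8 and 3.63 kb in sgNT. KDM6A, the H3K27 demethylase encoded on the X chromosome, had 46.0 kb covered in dense sgSETD8 and 34.1 kb in dense sgNT, with 14 and 12 peaks. Its sparse cover was close, 0.832 kb in sgSETD8 and 0.756 kb in sgNT.

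Over the 35 genes covered in the dense pair, 17 had a greater length in sgSETD8 and 18 a shorter one, beside 60.1% and 37.9% of all covered genes. The median log2 ratio of covered length was -0.01 for the 31 genes covered in both dense tables and 0.10 for 5791 such genes overall. A 2-fold or greater length in sgSETD8 was found for KMT2C, KDM4C and ASH1L, 3 genes beside 22.2% overall. A 2-fold or smaller length was found for DOT1L, KDM3B, KDM2A and SETDB2, 4 genes beside 12%. In the sparse pair 8 of 21 covered genes were longer in sgSETD8 and 13 shorter, beside 49.7% and 50.2%. Writers had 789 kb covered in dense sgSETD8 and 732 kb in dense sgNT, and erasers 482 kb and 457 kb, where all genes had 125 Mb and 110 Mb. The sparse pair ran the other way, with 7.51 kb in sgSETD8 and 30.8 kb in sgNT for writers and 3.02 kb and 18.0 kb for erasers.

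**Figure D3:**
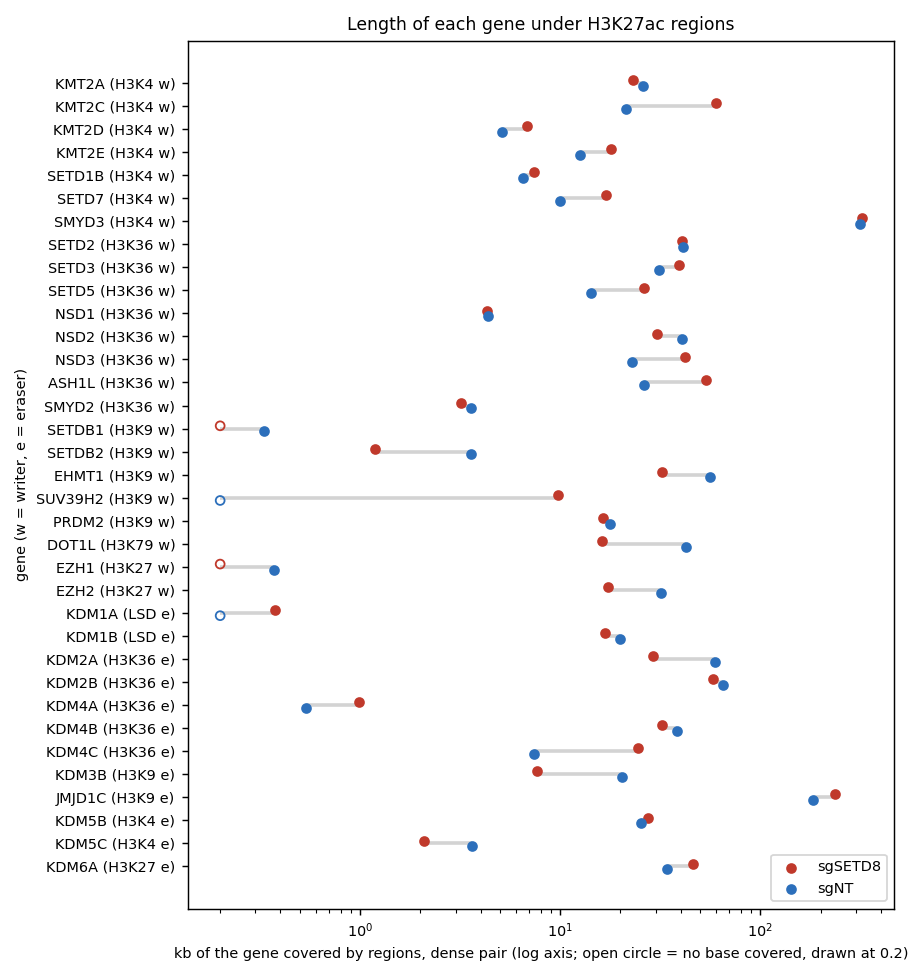
Length of each gene in kb (log axis) under dense H3K27ac regions by position, sgSETD8 in red and sgNT in blue, with open circles for no covered base. Genes of H3K79, H3K27 and most H3K9 writers sit further left in sgSETD8, with SUV39H2 the other way, and 17 of the 35 genes are longer in sgSETD8.

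The pairs were set side by side for the 19 genes covered in both. KMT2A, SETD2, NSD2, DOT1L, KDM2B and KDM4B were shorter in sgSETD8 in both pairs, 6 genes beside 23.8% of all genes covered in both. For KDM4B the sparse lengths, 0.274 kb in sgSETD8 and 0.293 kb in sgNT, are the narrowest widths of those tables, so that its sparse direction follows those widths, and the dense lengths of SETD2 were close (a ratio of 0.99). The sparse cover of KMT2A and of NSD2 was 1 short sgNT region each, 0.297 and 0.351 kb. KMT2E, SUV39H2, KDM5B and KDM6A were longer in both, 4 genes beside 24.8%. For SUV39H2 and KDM5B the sparse cover was 1 sgSETD8 region of 0.274 kb each, the narrowest width there. The sparse sgSETD8 region of KMT2E joined 2 peaks at a density of 0.17 per bp. The other 9 went opposite ways, KMT2C, ASH1L and JMJD1C among them. Among sparse regions, KMT2E had 2.46 kb covered in sgSETD8 and 0.462 kb in sgNT, KMT2A none and 0.297 kb, and SETD2 none and 0.937 kb.

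Regions with no overlapping region in the other group were fewer than in the tables at large on the sgNT side. Of the 104 dense sgNT regions, 7 had no sgSETD8 counterpart (6.73%, interval 2.75 to 13.4), against 22.7% of all dense sgNT regions. They were named for KDM4B (2 regions), SMYD3, JMJD1C, KDM2B, SETD1B and EZH1, each a single peak of 0.373 to 0.458 kb. Of the 136 dense sgSETD8 regions, 38 had no sgNT counterpart (27.9%, interval 20.6 to 36.3), against 34.0% of all. By name JMJD1C had 9 of these, SMYD3 8 and KMT2E 5. The sparse pair had 18 of 24 in sgSETD8 (85.1% of all) and 17 of 23 in sgNT (79.1% of all) without a counterpart.

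Sparse regions were checked against the dense table of the same group. In sgSETD8 14 of 24 overlapped it (58.3%, interval 36.6 to 77.9), against 26.3% of all sparse sgSETD8 regions. In sgNT 18 of 23 overlapped it (78.3%, interval 56.3 to 92.5), against 71.2%. Counted from the sparse sgSETD8 table, 5 of 24 loci were found in all 4 tables, beside 12.5% of all its regions. They lay in DOT1L intron 1, JMJD1C intron 2 and KDM6A intron 2, upstream of KDM4A, and beyond the 3′ end of SMYD2 in a region named for it.

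At the JMJD1C locus (chr10:63236580-63237262) the sparse density was 1.28 per bp in sgSETD8 and 6.71 in sgNT, a log2 ratio of -2.39, while the dense regions there had 0.811 and 0.887, a log2 ratio of -0.13. At the KDM4A locus (chr1:43597029-43597480), -52895 bp from the gene's start, the signs differed, with log2 ratios of 0.56 (sparse) and -0.68 (dense). At the SMYD2 locus (chr1:214362470-214362743) both were below 0, -1.01 (sparse) and -0.13 (dense). At KDM6A they were 0.57 and -0.15, and at DOT1L -1.09 and 0.25. The median log2 ratio of all matched regions was itself below 0 in both pairs, -0.26 in the dense (1769 regions) and -0.47 in the sparse pair (44 regions), on the unstated scale of the authors.

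Density was therefore read relative to the median of matched regions, in the dense pair. Regions that covered each other by at least 90% numbered 1769, and 12 of them belonged to 6 of the 44 genes. Their median log2 difference, sgSETD8 minus sgNT relative to all, was 0.03, with a range of -0.28 to 0.28 and an SD over all matched regions of 0.24. The lowest were JMJD1C, KMT2E and KMT2D (-0.28, -0.15 and -0.14) and the highest were all named for JMJD1C (0.16, 0.17 and 0.28). At 50% mutual cover, with 6011 matched regions, 56 belonged to 19 of the genes and their median was 0.04. Most of the 12 regions were named for JMJD1C, and most of the 56 for JMJD1C or KMT2E. The medians were not weighted by gene, so they mainly describe those loci.

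Of those 56 regions, 5 were over 1 SD (0.30) higher, beside 14.3% of all, and 8 over 1 SD lower, beside 14.9%. SETD5 was highest, with 0.741 per bp in sgSETD8 and 0.525 in sgNT, a relative log2 difference of 0.77. KMT2C followed at 0.48, for an intron 1 region that stopped short of its promoter window in both groups, and KDM6A at 0.37. KMT2E was lowest, with 0.515 per bp in sgSETD8 and 1.08 in sgNT at chr7:105038718-105039272, a relative difference of -0.80. A second KMT2E peak had -0.53 and EHMT1 -0.49. KMT2E had peaks on both sides of 0, up to 0.37.

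**Figure D4:**
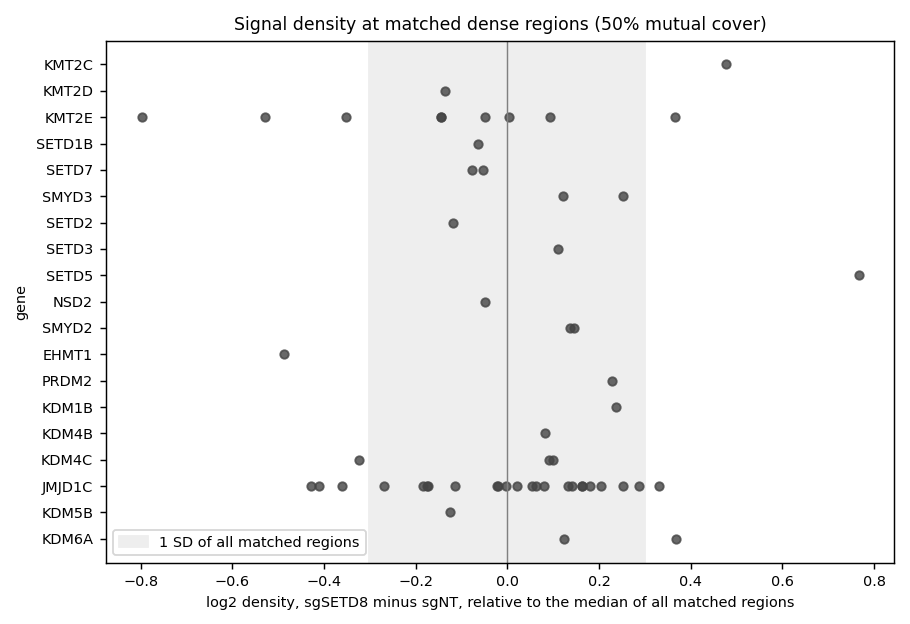
Relative log2 signal density, sgSETD8 minus sgNT, of the 56 matched dense regions (points) by gene, with 1 SD of all matched regions shaded. Most points lie inside the shaded band, SETD5 and KMT2C lie above it and KMT2E spans from -0.80 to 0.37.

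Super-enhancers were called where the curve of signal against rank, both scaled to their maximum, turned steeper than slope 1, and numbered 769 in dense sgSETD8 and 709 in dense sgNT. Those of dense sgSETD8 included NSD2, SMYD3 and JMJD1C, 3 of 30 genes with a region, beside 8.03% of all genes with a region in that table. Those of dense sgNT included NSD2, SMYD3, JMJD1C, SETD2 and DOT1L, 5 of 32 with a region, beside 8.19% of all genes with one. SETD2 and DOT1L thus lay below the threshold in dense sgSETD8, SETD2 at rank 792 just past the last of 769 and DOT1L at rank 1561. The sparse pair had none of the genes in sgSETD8 (3.88% of all genes with a region there) and SETD1B and DOT1L in sgNT (3.49%). DOT1L thus lay above the threshold in both sgNT tables and in neither sgSETD8 table.

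The partners of these enzymes were described from 6 lists, by regions named for each gene. Beside them, 36.1% of all genes with a dense region had more regions in sgSETD8 and 21.0% fewer, 61.5% were longer in total and 38.5% shorter, and 19.1% had a region in sgSETD8 only and 11.2% in sgNT only. Of all genes with a sparse region, 52.1% were longer in sgSETD8 and 47.9% shorter. A sparse region was found in sgSETD8 only for 42.9% of them and in sgNT only for 31.0%. The 9 DOT1L partners had 93 dense regions in sgSETD8 and 43 in sgNT, 5 genes with more and 1 with fewer, but a covered length of 270 kb and 273 kb. AFF1, a scaffold of the super elongation complex, decided the number, with 42 regions in sgSETD8 and 1 in sgNT but 65.8 kb and 159 kb, while MLLT10 had 38 and 34 regions. AFF3 had 6 regions over 58.3 kb in sgSETD8 and 2 over 1.96 kb in sgNT. MLLT6 had 1 region of 1.86 kb in sgSETD8 and none in sgNT.

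The 11 PRC2 partners had 17 dense regions in each group, 2 genes with more and 2 with fewer. JARID2, the subunit that recruits PRC2, held rank 2 in dense sgSETD8 and rank 3 in dense sgNT, with 326 kb and 304 kb. EED, the reader of H3K27 trimethylation, had 24.7 kb in sgSETD8 and 4.20 kb in sgNT, AEBP2 47.0 kb and 16.6 kb and LCOR 61.4 kb and 37.8 kb, so all 3 were longer in sgSETD8. In the whole list 5 genes were longer in sgSETD8 and 3 shorter. The sparse regions of the list covered 3.44 kb in sgSETD8 and 29.5 kb in sgNT, none longer in sgSETD8 and 5 shorter. JARID2 held most of this length, 2.76 kb in sparse sgSETD8 and 27.3 kb in sparse sgNT.

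The 11 KDM1A partners had 14 dense regions in sgSETD8 and 16 in sgNT, 1 gene with more and 3 with fewer, while their length was 297 kb in sgSETD8 and 242 kb in sgNT, 4 genes longer and 4 shorter. GFI1, the repressor that recruits KDM1A, had 87.8 kb in sgSETD8 and 53.8 kb in sgNT at ranks 185 and 196, RCOR1 56.2 kb and 28.2 kb, PHF21A 58.9 kb and 32.7 kb, and ZMYM3 none and 1.30 kb. The 12 COMPASS partners had 5 dense regions in each group, with NCOA6 in sgSETD8 only (7.54 kb) and HCFC1 in sgNT only (4.31 kb). In the sparse pair they had no region in sgSETD8 and 4 over 21.5 kb in sgNT. The 9 H3K9 partners and readers had 11 regions in sgSETD8 and 9 in sgNT, 2 genes with more and 3 with fewer. The heterochromatin protein genes CBX1 and CBX3 had regions in sgNT only (0.710 and 16.4 kb), CBX5 had 7.49 kb in sgSETD8 and 28.0 kb in sgNT, and ZNF644, a partner of EHMT1 and EHMT2, 39.3 kb and 1.73 kb.

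The 21 further methyltransferase and demethylase genes had 29 dense regions in sgSETD8 and 23 in sgNT, 6 genes with more and 2 with fewer. Their sparse regions covered 2.41 kb in sgSETD8 and 16.3 kb in sgNT, 1 gene longer and 5 shorter. PRDM1, the repressor that drives plasma cell differentiation, had 11 regions over 85.7 kb in sgSETD8 and 9 over 46.7 kb in sgNT. SETD6, SMYD4 and PRDM15 had 1 region each in dense sgSETD8 and none in dense sgNT, at ranks 14531, 15260 and 14179. PRDM15 also had its only sparse region in sgSETD8, whereas SMYD4 had its only sparse region in sgNT.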

How the data were processed

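H3K27ac CUT&Tag was done on 4 samples of Kasumi-1 cells, 2 with a SETD8 guide and 2 with a non-targeting guide, grouped by the sample titles. The series design text names H3K27me1, while titles and antibody labels name H3K27ac. Per the submitters' processing notes, the authors used cutadapt for trimming and Bowtie2 for alignment, with hg38 as the build. For the peak caller, joining of peaks, annotation tool and versions, nothing is given in the sources used here. Each deposited table holds joined enhancer regions with a signal, made by the authors as a density per bp times the region's length, with unstated scaling. The tables hold no counts, so depth is unknown. Each table got its group from the guide in its region identifiers. The sparse table read as sgNT carries no guide name, so its group was taken from that absence, and which sample a table belongs to was not resolved. Value columns without a group numbered 0. Nothing in the labels says that samples came from separate cultures.

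The 44 genes were matched by symbol to the deposited annotation, and by position to the RefSeq gene table (GRCh38.p14). A counterpart shared at least 1 bp. Signal was used to rank regions within a table and as density at matched regions. Backgrounds are the same counts over all genes, regions or promoters. The counting steps were tested on made-up regions with known overlaps. No test was applied. The named genes were KMT5A, genes with a region in 1 group only, genes whose region number differed by 2 or more, the 5 best-ranked regions of each dense table, the 3 highest and lowest density differences, genes with no region, and up to 4 genes per partner list. Others of the 44 were named after their values were seen. The 44 genes and the lists were chosen with earlier results of these data known. Alternatives were regions with a TSS within 50000 bp, the best-ranked 5000 regions, a minimum width of 500 bp, merging within 12500 bp, promoter regions left out, 50% cover, gaps up to 1000 bp, no centring and leaving out each pair. Software was matplotlib 3.10.9, scipy 1.17.1, pandas 2.3.3 and numpy 2.4.6 under Python 3.11.15.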

Additional observations from a re-analysis of the deposited data

How the results depend on the processing

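The dense log2 ratio of region number kept its sign except with the best-ranked 5000 regions (-0.040), and its other values lay between 0.05 and 0.45. The sparse log2 ratio, whose interval includes 0, was 0 with the best-ranked 5000 regions. It turned to -0.24 within 50000 bp of the TSS (all regions 0.24) and to -1.17 for regions of at least 500 bp (all regions -0.70). Under settings chosen after seeing the data it was -0.55 for regions found in the other pair (all regions -0.94), -0.057 for constituent peaks (all 0.41), -0.51 by position, -1.12 for covered length (all -0.17), -0.23 without JMJD1C and -0.25 without JMJD1C and KMT2E. Leaving out each pair gave a mean of 0.06 to 0.39. Genes with a region numbered 17 in dense sgSETD8 and 14 in dense sgNT among regions found in the other pair, and 4 in sparse sgSETD8 and 6 in sparse sgNT at 500 bp. With 50% cover the dense share without a counterpart was 46.3% in sgSETD8 and 25% in sgNT, against 51.3% and 35.1% of all regions. Over all 136 sgSETD8 and 104 sgNT regions, the share without a counterpart among the other group's best-ranked 5000 was 69.9% and 64.4%. All regions gave 67.5% and 63.2%, so the lower share of the 44 genes was not seen under that setting. Without centring the median density difference was -0.23, and among the best-ranked 5000 regions -0.049 (6 regions). The cause of these changes was not tested. The other 43 values kept their direction. They stayed within the counting interval or within 1.5 times, except the mean with a pair left out. That mean moved by more than 1.5 times but by less than its SD of 0.23. The ratios were taken within each pair of tables, and no paired test was applied. The mean over the pairs, which were set by the naming of the tables, is a description. When neighbouring regions are merged, KMT2E is called a super-enhancer in both dense tables and NSD2 in dense sgNT only. Unknown depth, 1 table per group and pair and differing joining of peaks limit every comparison.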
